A study of Mus musculus with 30 samples.

Results

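Bivalent regions are stretches of chromatin that carry H3K4me3, trimethylation of histone H3 at lysine 4, together with H3K27me3, trimethylation of histone H3 at lysine 27. The regions described here are the H3K4me3 regions of wild-type induced motor neurons that overlapped, by at least 1 base, an H3K27me3 region of wild type and also an H3K27me3 region of HD, a line labelled as a knockout of the homeobox gene Mnx1. They number 5079 of 21286 wild-type H3K4me3 regions (23.9%), after entries with the same start and end were taken once. Of the rest, 1891 regions overlapped H3K27me3 in wild type only, 50 in HD only and 14266 in neither. The regions were thus chosen by measured values, the H3K4me3 entries of wild type and the H3K27me3 entries of wild type and HD, and their H3K4me3 and H3K27me3 values are given below as a description, without a test. Of the 5079 regions, 3258 (64.2%) lay within 2 kb of the start of a protein-coding gene, 968 (19.1%) lay elsewhere inside a coding gene and 853 (16.8%) lay outside coding genes, so the name promoter covers part of them and they are called bivalent regions below. The 3258 regions at a start were linked to 3094 genes, of which 3023 are in the RNA tables. For 837 of the 3094 genes either end of the gene was taken as its start. Some of the 3258 regions may thus lie at the far end of a gene.

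The material was mouse: embryonic stem (ES) cells, and motor neurons obtained from such cells by induction. The series examines which genes depend on Mnx1, a homeodomain factor of motor neurons also called Hb9. RNA was measured in 4 groups of 2 libraries, namely induced motor neurons of the lines HD and EH, both labelled with the genotype Mnx1KO, induced motor neurons labelled WT, and ES cells labelled WT. All 3 motor neuron groups were collected on day 6 of an induction from embryoid bodies that used 1 µM each of retinoic acid, doxycycline and SAG, which activates Smoothened, together with 5 µM DAPT, which blocks Notch signalling through gamma-secretase. ChIP-seq peak lists cover H3K4me3, H3K27me3, H3K27ac, H3K4me1 and H3K9me3 in HD and in wild type, and Mnx1 in wild type, with 1 list for each mark and genotype, so no list gives a spread between libraries. The labels explain neither line name, describe neither allele and give no clone number. They also do not say whether the 2 libraries of a group came from separate cultures, so each p-value and standard error below measures only the spread between these libraries.

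H3K27me3 is laid down by Polycomb repressive complex 2 and is a mark of genes held silent or low, whereas H3K4me3 marks the starts of genes that are active or able to become active. Promoters that carry both are best known in ES cells, where they sit at genes of developmental regulators such as Hox, LIM and Pax factors and are rich in CpG dinucleotides. As cells choose a lineage, such a promoter can lose H3K27me3 and gain H3K27ac, a mark of active promoters and enhancers, or it can keep Polycomb marking. In a culture that mixes cell states the 2 marks can also lie on different cells or alleles, and bulk ChIP-seq does not separate these cases.

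Promoter sequences were taken for 2 genes at bivalent regions whose RNA rose in HD (Dmrt3 and Sorcs3), for 2 whose RNA fell in HD (Nwd2 and Zfp804a), and for the 2 genes in the promoter table at the regions of highest wild-type H3K27me3 enrichment (Uncx and Egr4). They show how far the base composition of these promoters ranges. Each runs from 250 bases before the start of the gene to 50 bases after it, is written 5′ to 3′ on the strand of the gene, and comes from RefSeq on GRCm38.p6 (mm10), with each CpG in capitals. The Dmrt3 promoter lies at chr19:25610287-25610586 on the plus strand, that of Sorcs3 at chr19:48205775-48206074 on the plus strand, and that of Nwd2 at chr5:63648853-63649152 on the plus strand. The promoter of Zfp804a lies at chr2:82053408-82053707 on the plus strand, that of Uncx at chr5:139543648-139543947 on the plus strand, and that of Egr4 at chr6:85513540-85513839 on the minus strand.
Dmrt3: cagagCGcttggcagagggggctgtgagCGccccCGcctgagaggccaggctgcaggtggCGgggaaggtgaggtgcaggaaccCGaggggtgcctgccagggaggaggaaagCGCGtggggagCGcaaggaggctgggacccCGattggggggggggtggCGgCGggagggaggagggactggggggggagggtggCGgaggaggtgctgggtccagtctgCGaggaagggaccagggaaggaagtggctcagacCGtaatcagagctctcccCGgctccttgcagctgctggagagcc
Sorcs3: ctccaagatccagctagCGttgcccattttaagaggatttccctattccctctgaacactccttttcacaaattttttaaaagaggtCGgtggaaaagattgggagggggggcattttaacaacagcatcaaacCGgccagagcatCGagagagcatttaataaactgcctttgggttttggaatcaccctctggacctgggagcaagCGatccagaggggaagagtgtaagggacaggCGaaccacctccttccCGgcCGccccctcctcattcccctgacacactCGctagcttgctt
Nwd2: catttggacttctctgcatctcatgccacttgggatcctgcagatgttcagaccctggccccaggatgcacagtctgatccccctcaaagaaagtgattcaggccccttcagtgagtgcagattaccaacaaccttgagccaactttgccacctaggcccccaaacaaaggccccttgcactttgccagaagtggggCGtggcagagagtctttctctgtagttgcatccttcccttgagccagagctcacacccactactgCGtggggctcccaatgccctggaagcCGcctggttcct
Zfp804a: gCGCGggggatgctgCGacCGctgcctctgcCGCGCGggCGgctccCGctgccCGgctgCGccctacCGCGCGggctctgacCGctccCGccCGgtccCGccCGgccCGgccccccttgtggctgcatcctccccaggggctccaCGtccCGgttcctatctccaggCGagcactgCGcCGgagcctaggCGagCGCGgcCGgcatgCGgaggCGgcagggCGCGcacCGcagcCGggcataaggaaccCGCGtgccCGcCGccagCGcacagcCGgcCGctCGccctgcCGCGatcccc
Uncx: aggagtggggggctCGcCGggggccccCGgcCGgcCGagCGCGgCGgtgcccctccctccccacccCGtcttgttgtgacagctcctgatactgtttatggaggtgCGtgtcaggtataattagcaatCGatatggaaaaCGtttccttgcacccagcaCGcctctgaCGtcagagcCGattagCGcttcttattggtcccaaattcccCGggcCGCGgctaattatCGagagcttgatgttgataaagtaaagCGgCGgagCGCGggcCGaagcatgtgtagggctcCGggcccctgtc
Egr4: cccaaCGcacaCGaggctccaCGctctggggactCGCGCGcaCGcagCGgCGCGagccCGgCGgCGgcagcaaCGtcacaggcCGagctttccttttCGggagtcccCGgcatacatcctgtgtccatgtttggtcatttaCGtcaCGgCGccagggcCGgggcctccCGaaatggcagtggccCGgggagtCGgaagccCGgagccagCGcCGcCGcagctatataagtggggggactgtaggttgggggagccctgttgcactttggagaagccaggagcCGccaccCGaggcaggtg

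These 6 promoters hold 15 CpG in Dmrt3, 9 in Sorcs3, 3 in Nwd2, 45 in Zfp804a, 26 in Uncx and 30 in Egr4. GC content was 70.7% in Dmrt3, 51.0% in Sorcs3, 55.7% in Nwd2, 79.3% in Zfp804a, 60.7% in Uncx and 67.7% in Egr4. The Nwd2 promoter was thus far poorer in CpG than the others, although its gene start lies within 2 kb of an H3K4me3 region that kept H3K27me3. Over 2257 promoters of genes at bivalent regions with an entry in the promoter table, the median GC content was 64.0%, and the median ratio of observed to expected CpG was 0.703. The medians were 62.7% and 0.674 over 863 promoters marked by H3K27me3 in wild type only, and 61.0% and 0.791 over 8028 promoters with H3K4me3 and no H3K27me3. They were 56.3% and 0.577 over all 17492 coding promoters, and 46.3% and 0.173 over 6326 coding promoters with no wild-type H3K4me3 region within 2 kb. Promoters at bivalent regions were the richest of these groups in GC, and promoters with H3K4me3 alone had the highest CpG ratio. The letters TAAT or ATTA, the same core motif of many homeodomain factors read on either strand (TAATTA holds both), occurred in 33.7% of promoters at bivalent regions, in 36.5% of those marked in wild type only, in 41.4% of those without H3K27me3 and in 52.5% of all coding promoters. The motif holds only A and T, and these shares ran in the reverse order of the median GC content. The part of base composition in them was not tested. TAAT and ATTA were counted apart, so that a TAATTA, as in the Uncx promoter, counts for both. So counted, they were found 5 times in the Uncx promoter and 1 time each in those of Dmrt3, Sorcs3 and Nwd2. Neither was found in the promoters of Zfp804a and Egr4, each within the window shown.

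The bivalent regions had a median length of 1791 bases. The H3K27me3 region over a bivalent region had a median width of 2290 bases in HD and 3382 bases in wild type. Its median fold enrichment, the value of the authors' peak caller, was 4.15 in HD (range 2.12 to 17.4) and 6.34 in wild type (range 2.49 to 27.01). A median of 94.8% of a bivalent region was covered by H3K27me3 in HD and the entire region in wild type. These values chose the regions, and the lists differ as wholes: the HD list holds 5729 H3K27me3 regions over 12.9 Mb, against 9365 regions over 20.3 Mb in wild type, and the median fold of all H3K4me3 regions was 18.2 in HD and 33.8 in wild type. A lower fold in HD is therefore not read as less mark at these regions. The 5079 bivalent regions lay over 4276 distinct H3K27me3 regions in HD and 4119 in wild type, and 1 wild-type H3K27me3 region held up to 24 of them.

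At the edge of the rule, the smallest overlap that made a region a member was 19 bases, and 42 members shared fewer than 100 bases with an H3K27me3 region of either list. On the other side, the closest region marked in wild type only lay 2 bases from an HD H3K27me3 region, and 26 such regions lay within 100 bases of one. Regions marked in wild type only had a narrower and weaker wild-type H3K27me3 region, with a median width of 858 bases and a median fold of 3.15.

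The strongest H3K27me3 lay over genes of transcription factors and of secreted or matrix proteins. Uncx, a homeodomain factor of somites and spinal neurons, had 15.8 in HD and 25.5 in wild type, under an H3K27me3 region of 25902 bases in HD and 26612 bases in wild type. Lbx1, a homeodomain factor of dorsal spinal interneurons, had 12.0 in HD and 25.2 in wild type. These were followed by Zfp36l2, an RNA-binding protein that promotes mRNA decay, with 13.7 in HD and 23.4 in wild type, and Egr4, an early growth response factor, with 13.2 in HD and 23.4 in wild type. Gli1, the transcriptional target and effector of Hedgehog signalling, had 15.7 in HD and 23.1 in wild type, Cilp2 had 11.2 in HD and 22.8 in wild type, and the cartilage matrix gene Comp had 10.4 in HD and 22.7 in wild type. These regions all overlapped H3K9me3 as well in wild type, and 2 of them, at Zfp36l2 and Gli1, overlapped H3K27ac in both genotypes. Their genes ranged widely in RNA: Egr4 was listed at 0 TPM in both HD libraries and at 0 and 0.06 TPM in wild type, while Zfp36l2 had 15.3 and 19.4 TPM in HD and 19.0 and 20.3 TPM in wild type.

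Among bivalent regions, H3K9me3, a mark of constitutive heterochromatin, was listed more often than among other H3K4me3 regions, and H3K27ac and Mnx1 less often. H3K27ac overlapped 19.9% of bivalent regions in HD and 18.3% in wild type. Among regions marked by H3K27me3 in wild type only the shares were 40.5% in HD and 38.2% in wild type, and among regions with no H3K27me3 they were 65.7% in HD and 64.1% in wild type. Acetylation was shared for the most part: 865 bivalent regions had H3K27ac in both genotypes, 146 in HD only, 64 in wild type only and 4004 in neither. A wild-type Mnx1 peak overlapped 4.00% of bivalent regions, 9.78% of regions marked in wild type only and 19.2% of regions without H3K27me3. Anti-GFP is among the listed antibodies while anti-Mnx1 is not, and the labels do not say how the Mnx1 peaks were obtained. With 1 list for each mark and genotype, none of these differences has a test.

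H3K9me3 overlapped 36.9% of bivalent regions in HD and 52.5% in wild type, from 1 library in each genotype. It overlapped 3.65% in HD and 7.99% in wild type of the regions marked in wild type only, and 1.82% in HD and 2.29% in wild type of the regions without H3K27me3. The H3K9me3 entries at bivalent regions were of low to moderate strength, with a median fold of 3.56 in HD and 4.14 in wild type. When entries were limited to a −log10 q of at least 3, the shares of bivalent regions with H3K9me3 were 16.2% in HD and 27.5% in wild type. H3K4me1, a mark of enhancers and promoter flanks, overlapped 77.8% of bivalent regions in HD and 92.1% in wild type, against 81.05% in HD and 88.25% in wild type of regions without H3K27me3. Both lists were smaller in HD as wholes, with 15427 H3K9me3 regions against 21120 in wild type, and 90369 H3K4me1 regions against 110851. A lower share in HD is therefore not read as less H3K9me3 or H3K4me1 at bivalent regions. An HD H3K4me3 region overlapped 89.5% of bivalent regions, against 88.0% of regions without H3K27me3, so H3K4me3 was also listed in HD at most of them.

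**Figure D1:**
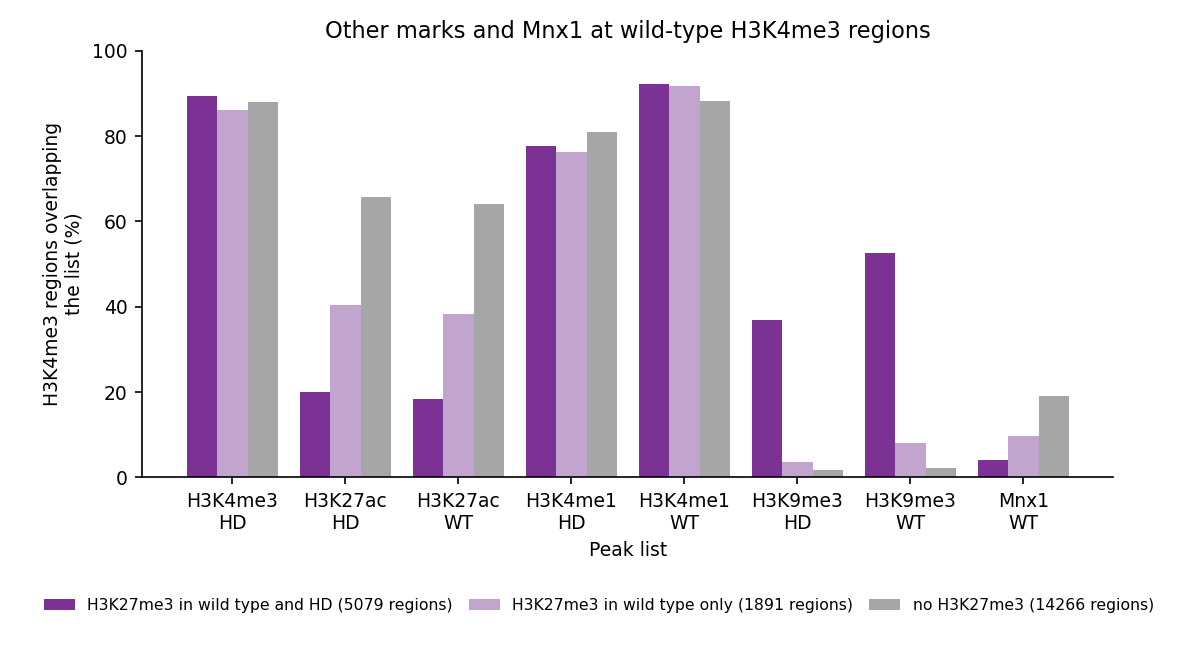
Share of wild-type H3K4me3 regions that overlapped each other peak list by 1 base or more (y axis, %), for regions with H3K27me3 in wild type and HD, in wild type only, and in neither; bars are single shares with no replicate error. H3K27ac overlapped 19.9% of the regions marked in both genotypes in HD, and H3K9me3 52.5% of them in wild type.

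Within the bivalent regions, H3K9me3 and H3K27ac followed the strength of H3K27me3 in opposite directions. The regions were put in 4 bins of equal size by wild-type H3K27me3 fold. In the lowest bin (2.49 to 4.45), 9.45% had H3K9me3 in HD and 18.7% in wild type. In the next bins the shares were 17.1% in HD and 35.2% in wild type, then 45.1% in HD and 67.7% in wild type, and in the top bin, with folds from 10.04 to 27.01, they were 75.9% in HD and 88.6% in wild type. H3K27ac ran the other way, with 29.8% in HD and 29.0% in wild type in the lowest bin, and 9.69% in HD and 7.56% in wild type in the top bin. Mnx1 peaks lay at 6.06% of the lowest bin and 2.05% of the top bin. The top bin also had a lower median H3K4me3 fold (17.8) than the lowest bin (31.1). H3K9me3 in wild type was listed at 28.2% of the bivalent regions with wild-type H3K27ac and at 58.0% of those without it.

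**Figure D2:**
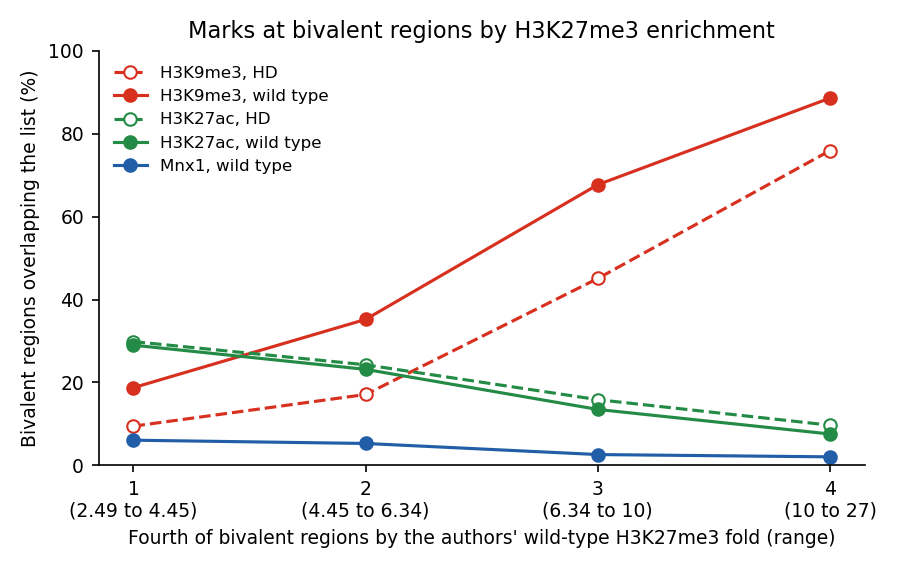
Share of bivalent regions overlapping H3K9me3, H3K27ac and Mnx1 lists (y axis, %) in 4 bins of the regions by the authors' wild-type H3K27me3 fold (x axis, with the range of folds); each point is 1 share over 1269 or 1270 regions with no replicate error. H3K9me3 in wild type goes from 18.7% in the lowest bin to 88.6% in the top bin, and H3K27ac in wild type from 29.0% to 7.56%.

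Genes at bivalent regions were lowly expressed in every group. The median level over 3023 genes was 2.99 and 2.98 TPM in HD, 2.48 and 2.11 TPM in EH, 3.06 and 3.03 TPM in wild-type motor neurons, and 0.84 and 0.89 TPM in ES cells. Genes marked in wild type only had medians of 11.1 and 10.7 TPM in HD, 9.66 and 9.98 TPM in EH, 10.6 and 10.2 TPM in wild-type motor neurons, and 2.12 and 2.26 TPM in ES cells. Genes with H3K4me3 and no H3K27me3 had medians between 28.3 and 29.5 TPM in all 6 motor neuron libraries and of 17.7 and 17.3 TPM in ES cells. Low did not mean silent: 895 and 911 of the 3023 genes at bivalent regions reached 10 TPM in HD, and 926 and 905 did so in wild-type motor neurons. In a bulk library, fewer cells that express a gene and less RNA per cell cannot be told apart.

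**Figure D3:**
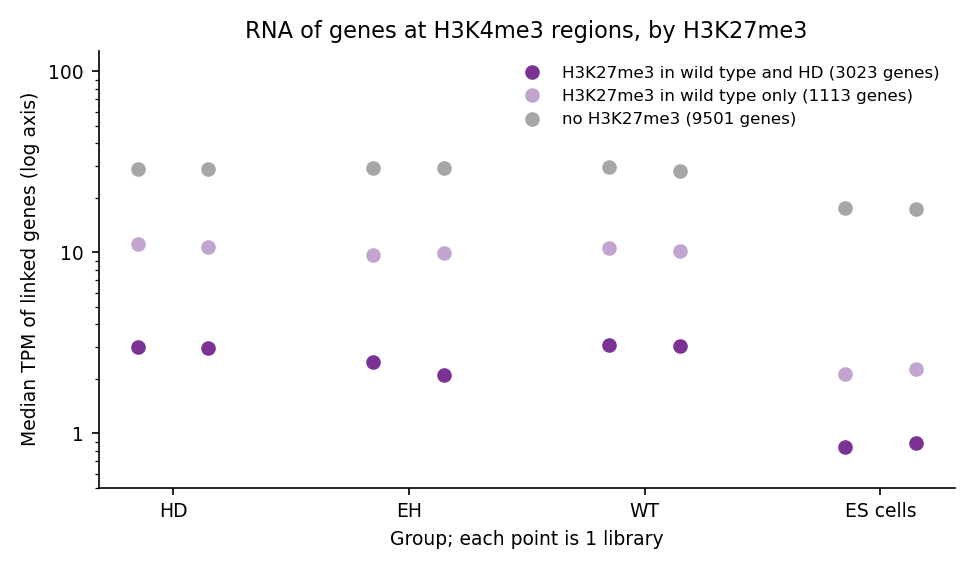
Median TPM of linked genes in each RNA library (y axis, log scale) by the H3K27me3 of the H3K4me3 region at their start; each point is 1 library. Genes at bivalent regions lie between 2.11 and 3.06 TPM in the motor neuron libraries and at 0.84 and 0.89 TPM in ES cells, below both other groups in every library.

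RNA levels also followed the marks. Where H3K27ac lay on the bivalent region in both genotypes (768 genes), the median was 19.7 and 19.7 TPM in HD and 19.1 and 17.9 TPM in wild-type motor neurons. Without H3K27ac in either (2104 genes), it was 1.21 and 1.17 TPM in HD and 1.31 and 1.26 TPM in wild type. In the lowest of 4 bins of genes by wild-type H3K27me3 fold the median was 5.84 and 5.71 TPM in HD and 6.22 and 6.00 TPM in wild type, and in the top bin it was 1.17 and 1.22 TPM in HD and 1.34 and 1.29 TPM in wild type. The 168 genes whose bivalent region held a Mnx1 peak had medians of 19.5 and 18.6 TPM in HD and 17.7 TPM in both wild-type libraries.

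For all RNA comparisons, total expected counts were 11.2 and 12.4 M in HD, 39.8 and 39.7 M in EH, 13.9 M in each wild-type motor neuron library, and 53.2 and 51.3 M in ES cells. Mnx1 itself had 377 and 312 TPM in HD, 446 and 565 TPM in EH, 395 and 343 TPM in wild-type motor neurons, and 0.36 and 0.29 TPM in ES cells. Its level passed the test in neither line (edgeR adjusted p = 0.977 in HD and 0.064 in EH). The alleles are not described, so the RNA level does not check the genotype labels, and HD and EH stand below for libraries labelled so. All 17 genes of a motor neuron marker list were higher in wild-type motor neurons than in ES cells by the same test. Of 16 tested trophoblast markers, 15 were lower in EH, and the summed level of the list was 2690 to 3380 TPM in HD, 1110 to 1630 TPM in EH, 2990 to 3500 TPM in wild-type motor neurons and 124 to 131 TPM in ES cells.

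In HD against wild-type motor neurons, 13 of 2331 tested genes at bivalent regions were called at an adjusted p of 0.05 by edgeR's quasi-likelihood test, 10 higher and 3 lower. That is 0.558% of the genes that passed the filter on low counts, beside 0.173% of all 15565 genes tested. In the single directions, 0.429% were called higher, beside 0.135% of all genes, and 0.129% lower, beside 0.0385%. Among tested genes marked in wild type only 5 of 972 were called, and among those without H3K27me3 5 of 9110. The calls rest on all 4 libraries together: with any 1 HD or wild-type library left out, 0 genes at bivalent regions were called by edgeR, while 187 to 220 had an unadjusted p under 0.05, against 306 with all libraries. DESeq2 called 82 genes with all libraries, 65 higher and 17 lower, beside 146 higher and 36 lower of all 15565 genes tested.

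The genes that rose in HD include transcription factors. Dmrt3, a factor of dI6 spinal interneurons, had 14.3 and 16.7 TPM in HD, 2.50 and 2.57 TPM in EH, and 2.58 and 2.54 TPM in wild type. Both HD libraries lay above all others, and the log2 fold change was 2.61 ± 0.18 (SE) with an edgeR adjusted p of 0.0102. Its bivalent region was among the strongly marked ones, with an H3K27me3 fold of 6.04 in HD and 17.7 in wild type, and it overlapped H3K27ac in HD (fold 3.27) but not in wild type. Nr2f1, an orphan nuclear receptor also called COUP-TFI, had 191 and 214 TPM in HD, 50.9 and 58.7 TPM in EH, and 105 and 112 TPM in wild type, so that HD lay highest and EH lowest. Its log2 fold change in HD was 1.00 ± 0.12 (edgeR adjusted p = 0.0482), and with RLE size factors the call was lost (edgeR adjusted p = 0.0509). Of the 13 genes, Nr2f1 was the one whose bivalent region overlapped a Mnx1 peak, with a fold of 4.61. Of 165 tested genes with such a peak 1 was called higher in HD. Of 2166 without one, 9 were called higher and 3 lower. These shares are close, and the part of the peak in the rise of Nr2f1 was not tested.

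Other genes that rose act in adhesion, guidance and signalling between cells. Chl1, an adhesion molecule of the L1 family, had 39.2 and 35.3 TPM in HD, 9.98 and 11.9 TPM in EH, and 8.55 and 9.99 TPM in wild type, a log2 fold change in HD of 2.01 ± 0.14 (edgeR adjusted p = 0.0102). Ntng1, the membrane-anchored netrin G1, had 48.0 and 40.2 TPM in HD, 17.7 and 16.1 TPM in EH, and 16.3 and 19.0 TPM in wild type, and changed by 1.31 ± 0.13 (edgeR adjusted p = 0.0270). Unc5d, a receptor of the UNC5 netrin receptor family, had 7.13 and 6.17 TPM in HD, 1.57 and 1.61 TPM in EH, and 1.81 and 2.18 TPM in wild type, and changed by 1.74 ± 0.16 (edgeR adjusted p = 0.0193). In all 3 genes HD stood apart from the other groups, which lay close together. Frzb, a secreted Wnt antagonist, had 111 and 102 TPM in HD, 13.2 and 13.3 TPM in EH, and 22.4 and 27.1 TPM in wild type, and changed by 2.13 ± 0.14 (edgeR adjusted p = 0.0102). Lypd1, a Ly6 family protein that binds nicotinic receptors, had 313 and 334 TPM in HD, 43.8 and 51.3 TPM in EH, and 85.9 and 101 TPM in wild type, and changed by 1.81 ± 0.16 (edgeR adjusted p = 0.0193). Frzb and Lypd1 lay above wild type in HD and below it in EH, without overlap.

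Sorcs3, a sorting receptor of the Vps10 family, had 31.3 and 27.6 TPM in HD, 7.47 and 12.7 TPM in EH, and 5.16 and 6.75 TPM in wild type, a log2 fold change in HD of 2.31 ± 0.27 (edgeR adjusted p = 0.0482) whose call was lost with RLE size factors (edgeR adjusted p = 0.0509). Its bivalent region had an H3K27ac fold of 5.44 in HD and 2.62 in wild type, while that of Unc5d overlapped H3K27ac in neither genotype.

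The 3 falls were Nwd2, Pou3f1 and Zfp804a. Nwd2 had 2.05 and 2.76 TPM in HD, 13.1 and 17.3 TPM in EH, and 16.4 and 11.4 TPM in wild type, a log2 fold change in HD of −2.57 ± 0.19 (edgeR adjusted p = 0.0103). Its bivalent region overlapped H3K27ac in wild type (fold 3.33) and not in HD. Pou3f1, a POU factor of certain spinal motor neuron pools, had 1.83 and 1.97 TPM in HD, 1.89 and 2.45 TPM in EH, 11.05 and 11.15 TPM in wild type, and 20.8 and 31.3 TPM in ES cells. It fell in both lines, with log2 fold changes of −2.54 ± 0.19 in HD (edgeR adjusted p = 0.0116) and −2.34 ± 0.18 in EH (edgeR adjusted p = 0.00255). Its H3K27me3 fold was 8.61 in HD and 14.0 in wild type, without H3K27ac in either. Zfp804a, a zinc finger protein, had 3.65 and 3.63 TPM in HD, 6.07 and 5.13 TPM in EH, and 11.9 and 11.04 TPM in wild type, and fell in both lines too, with log2 fold changes of −1.64 ± 0.15 in HD (edgeR adjusted p = 0.0193) and −1.01 ± 0.14 in EH (edgeR adjusted p = 0.00726). HD and EH were set against the same 2 wild-type libraries, so their changes are not independent of each other.

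**Figure D4:**
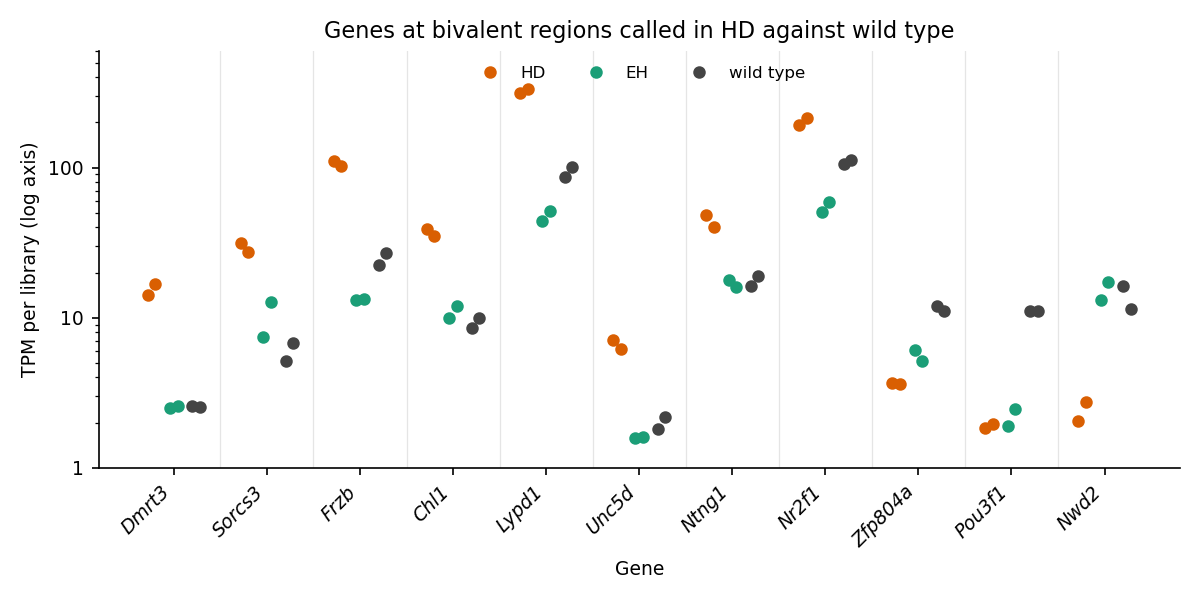
TPM in each library (y axis, log scale) of 11 of the 13 genes at bivalent regions called in HD against wild type, ordered by log2 fold change in HD; each gene shows 2 libraries of HD, EH and wild type from left to right. HD lies above wild type in the first 8 genes and below it in Zfp804a, Pou3f1 and Nwd2, with no overlap between the 2 groups.

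In EH against the same wild-type libraries, 821 of 2331 tested genes at bivalent regions were called by edgeR (35.2%), beside 21.2% of all genes tested. Of these, 636 genes (27.3%) were lower, beside 11.6% of all genes, and 185 (7.94%) were higher, beside 9.61%. The median log2 fold change was −0.31 over the tested genes at bivalent regions and 0.00 over all genes. Among genes marked in wild type only, 182 of 972 were lower (18.7%) and 97 higher (9.98%), so that falls outnumbered rises there too. Among genes without H3K27me3, 632 of 9110 were lower (6.94%) and 939 higher (10.3%). Set directly against each other, 825 of the 2331 genes differed between HD and EH by edgeR (35.4%, beside 21.2% of all genes), with 629 higher in HD (26.98%, beside 11.8%) and 196 lower (8.41%, beside 9.43%). The number of calls in EH against wild type moved with the libraries: it was 77 without the first wild-type library, 51 without the second and 1238 without the first EH library. In all 3 of these, lower calls outnumbered higher ones, with 67 against 10, 45 against 6, and 892 against 346. The summed level of trophoblast markers was lower in EH as given above, 8 of the 9 such genes at bivalent regions were tested and all 8 fell, and the part of other cell types in the EH changes was not tested.

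Falls in EH covered 20.1% of tested genes in the lowest of the 4 bins of wild-type H3K27me3 fold, then 27.5%, 30.9% and 31.8% in the top bin. The largest falls include genes of secreted signals and their receptors. Mafa, a large Maf factor, had 6.51 and 6.00 TPM in EH, 142 and 135 TPM in HD, and 82.3 and 85.3 TPM in wild type, a log2 fold change in EH of −3.73 ± 0.12 (edgeR adjusted p = 0.000165). Sstr1, a somatostatin receptor, had 2.45 and 2.14 TPM in EH, 37.0 and 27.9 TPM in HD, and 21.2 and 20.1 TPM in wild type, with a log2 fold change of −3.15 ± 0.19 (SE; edgeR adjusted p = 0.00243). Both genes were low in EH alone, with libraries that did not overlap. Inhbb, the beta B subunit of activins and inhibins, had 0.47 and 0.22 TPM in EH, 4.17 and 6.31 TPM in HD, and 5.22 and 6.40 TPM in wild type, with a log2 fold change of −4.03 ± 0.39 (SE; edgeR adjusted p = 0.00407). Igf2, an imprinted growth factor, had 134 and 13.2 TPM in EH, 610 and 738 TPM in HD, and 826 and 966 TPM in wild type. Its 2 EH libraries lay far apart, and its log2 fold change of −3.59 ± 0.92 passed with an edgeR adjusted p of 0.0356.

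Nrtn, the GDNF family ligand neurturin, fell to 0.54 and 0.16 TPM in EH, against 7.24 and 5.72 TPM in wild type, and Lepr, the leptin receptor, to 1.71 and 0.22 TPM, against 8.51 and 8.80 TPM. Fxyd7, a regulator of the sodium pump, had the largest fall, with 0.90 and 0.34 TPM in EH and 13.8 and 13.5 TPM in wild type (log2 fold change −4.40 ± 0.42, edgeR adjusted p = 0.00392). Prom2, Tymp and Itga1 completed the 10 largest falls, with log2 fold changes of −3.43 ± 0.49, −3.15 ± 0.56 and −3.14 ± 0.37 and edgeR adjusted p-values of 0.00792, 0.0129 and 0.00581. Of the 10 genes, H3K27ac was listed at the bivalent regions of Mafa and Igf2, in both genotypes.

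Among the rises in EH, Sst, the neuropeptide somatostatin, had 43.2 and 45.5 TPM in EH, 4.65 and 4.48 TPM in HD, and 5.98 and 4.51 TPM in wild type, and rose on the log2 scale by 3.08 ± 0.22 (edgeR adjusted p = 0.0025). Gata4, a factor of endoderm and heart, had 6.53 and 19.5 TPM in EH, 1.80 and 1.91 TPM in HD, and 2.62 and 2.68 TPM in wild type, and rose by 2.37 ± 0.52 (edgeR adjusted p = 0.0230). Bhlhe22, a basic helix-loop-helix factor of several neuron types, had 3.90 and 7.92 TPM in EH, 1.23 and 1.14 TPM in HD, and 1.10 and 1.12 TPM in wild type, and rose by 2.43 ± 0.38 (edgeR adjusted p = 0.00942). In Sst the EH libraries lay close together, and in Gata4 and Bhlhe22 they spanned a wide range above both other groups. The remaining rises among the 10 largest stood at low levels, no higher than 3.02 TPM in either EH library. They were Tnfsf11 (the ligand RANKL), the somatostatin receptor Sstr2, Thsd7b, Adcyap1 (the neuropeptide PACAP), Lrrc38 (an auxiliary subunit of BK channels), the adrenergic receptor Adra1a and the protease Adamts5, with log2 fold changes from 2.29 ± 0.41 for Adamts5 to 2.89 ± 0.61 for Tnfsf11 (edgeR adjusted p = 0.0135 and 0.0199). None of the 10 regions other than that of Bhlhe22 overlapped H3K27ac.

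**Figure D5:**
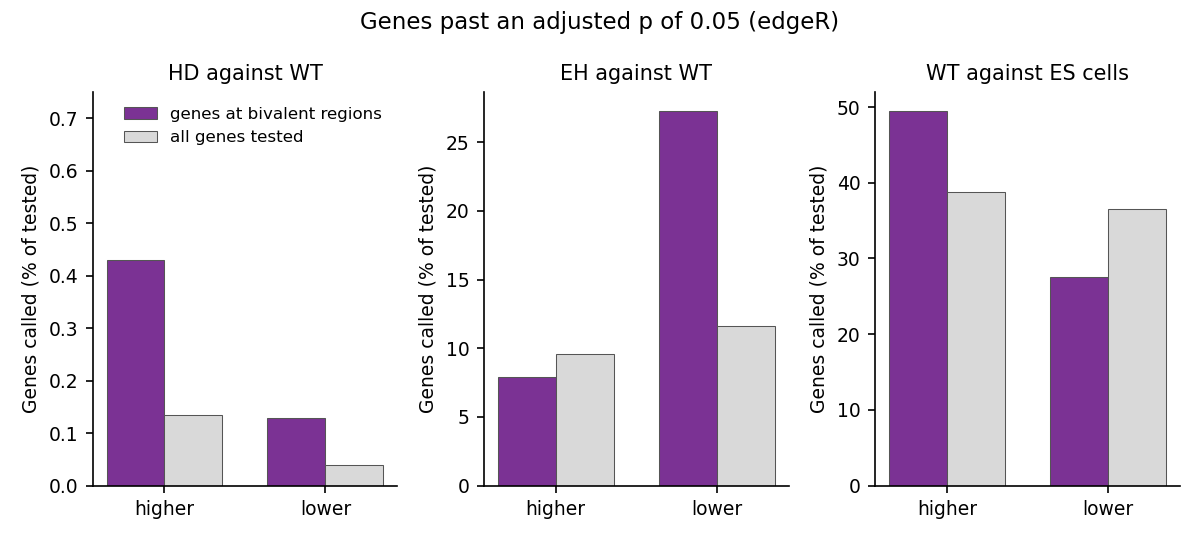
Share of tested genes called higher or lower at an edgeR adjusted p of 0.05 (y axis, %, with its own scale in each panel) for genes at bivalent regions and for all genes tested, in 3 comparisons; bars are single shares with no error. In EH 27.3% of tested genes at bivalent regions were lower, beside 11.6% of all genes.

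Between ES cells and wild-type motor neurons, genes at bivalent regions moved in both directions, with more rises than over all genes. In wild-type motor neurons against ES cells, 2032 of 2636 tested genes at bivalent regions were called by edgeR (77.1%), beside 75.3% of all 17770 genes tested. Of these, 1305 were higher (49.5%, beside 38.8% of all genes) and 727 lower (27.6%, beside 36.5%). Genes marked in wild type only had a larger share of rises, with 620 of 1034 higher (59.96%) and 224 lower (21.7%), and a median log2 fold change of 1.18. The median log2 fold change was 0.74 over genes at bivalent regions and 0.02 over all genes. On the log2(TPM + 1) scale the medians were 0.65 and 0.43, so all genes shifted upwards there and the distance between the 2 was smaller. In that fit 1465 of 2636 genes at bivalent regions were higher and 512 lower, and 9043 of all 17770 genes were higher and 4025 lower. The excess of rises over all genes was thus smaller there than by edgeR. With no H3K27ac on the region the share of rises was 40.0% and that of falls 32.3%, and with H3K27ac in both genotypes they were 67.8% and 19.2%.

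The largest rises took genes from almost no counts in ES cells to clear expression, at starts within 2 kb of an H3K4me3 region that shared at least 1 base with H3K27me3. Lhx4, a LIM homeodomain factor of motor neurons, had 83.9 and 67.2 TPM in wild-type motor neurons, with 4478 counts over both libraries against 1 count in ES cells. Cacng2, the AMPA receptor auxiliary subunit stargazin, had 13.9 and 12.4 TPM and no count in ES cells, which makes it at least 1420-fold higher against a floor of 3 counts over the 2 ES libraries. The same floor gave at least 723-fold for Nlgn1, the postsynaptic adhesion protein neuroligin 1, at least 426-fold for Pcdha2 and at least 249-fold for Cartpt, a neuropeptide precursor. Pcdha2 belongs to a cluster of protocadherins whose transcripts share their 3′ exons, so reads may be split among its members. Chat, the enzyme that makes acetylcholine, had 118 and 86.8 TPM in wild-type motor neurons and 0.06 and 0.03 TPM in ES cells. Onecut3, Amer3, Nwd2 and Golga7b complete the 10 and had 1 or 2 counts over the ES libraries. For Nwd2 the ratio of counts, scaled by the total counts of the libraries, was 3330, with an exact interval of 920 to 27500 that covers counting error only. Of the 10 bivalent regions, those of Pcdha2 and Cartpt lacked H3K27ac in both genotypes and that of Nwd2 lacked it in HD.

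The largest falls were genes of the ES cell state. Tdgf1, the Nodal co-receptor Cripto, had 1.20 and 2.16 TPM in wild-type motor neurons and 570 and 625 TPM in ES cells, a log2 fold change of −9.01 ± 0.46 (SE; edgeR adjusted p = 8.71e-07). Trh, the precursor of thyrotropin-releasing hormone, had 0.82 and 1.11 TPM in motor neurons and 445 and 431 TPM in ES cells. Fgf4, a growth factor that ES cells secrete, had 0.48 and 0.39 TPM in motor neurons and 80.1 and 74.4 TPM in ES cells. Foxd3, a forkhead factor of ES cells and neural crest, had 0.06 and 0.11 TPM in motor neurons and 16.8 and 16.3 TPM in ES cells, under one of the stronger H3K27me3 regions (fold 12.7 in HD and 18.9 in wild type). Tdh, the threonine dehydrogenase of mouse ES cells, Otx2, a factor of early epiblast and forebrain, the fatty acid transporter Slc27a2, and the nephrin family genes Nphs1 and Kirrel2, which share 1 bivalent region, were other large falls. None of the bivalent regions of these genes overlapped H3K27ac in either genotype.

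By gene family, bivalent regions held 3094 of 21887 coding genes (14.1%). All 26 genes of a list of spinal progenitor factors, all 25 forebrain and eye factors, 34 of 35 spinal interneuron factors, 36 of 41 mesoderm factors and 16 of 18 endoderm factors lay at bivalent regions. So did 17 of 19 Wnt ligands, 26 of 35 voltage-gated channel genes, 20 of 43 axon guidance genes, 1 of 20 housekeeping genes and 1 of 20 cell cycle genes. The lists of regulators differed in H3K27me3. The median fold was 8.05 in HD and 12.8 in wild type for the spinal progenitor factors, 7.93 in HD and 12.5 in wild type for the interneuron factors, and 6.98 in HD and 11.4 in wild type for the mesoderm factors. It was lower for the motor neuron list, with 3.44 in HD and 5.42 in wild type, and for the nuclear receptors, with 5.50 in HD and 7.81 in wild type. The channels had 3.99 in HD and 5.67 in wild type, and the guidance genes 3.64 in HD and 5.30 in wild type.

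The Hox genes, which pattern the body axis, ran along their clusters from acetylated and expressed to strongly marked by H3K27me3 with little RNA. Of paralog groups 1 to 5, 9 of 15 genes lay at bivalent regions, with a median wild-type H3K27me3 fold of 6.06, of groups 6 to 9 it was 11 of 12 with 12.6, and of groups 10 to 13 all 12 with 15.4. H3K27ac lay at 7 of the 9 in HD and 6 in wild type for groups 1 to 5, at 5 and 4 of the 11 for groups 6 to 9, and at none of the 12 for groups 10 to 13. Hoxb5 had 403 and 381 TPM in HD, 114 and 223 TPM in EH, 229 and 253 TPM in wild-type motor neurons, and 0.16 and 0.10 TPM in ES cells. Hoxb8 had 212 and 271 TPM in HD, 42.6 and 71.4 TPM in EH, 140 and 156 TPM in wild-type motor neurons, and 0.20 and 0.18 TPM in ES cells. At the other end Hoxa10, Hoxc10 and Hoxd10 stayed at or below 0.27 TPM in every library, and Hoxd12 was listed at 0 in all 8. Hoxb3, Hoxb4 and Hoxb5 share 1 bivalent region of 33232 bases, the longest of all, with an H3K27me3 fold of 2.70 over 512 bases in HD and 3.97 over 3404 bases in wild type, and 1 wild-type H3K27me3 region of 96861 bases spans Hoxc6 and Hoxc8 to Hoxc13.

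Against ES cells all 19 tested Hox genes of groups 1 to 9 at bivalent regions rose, with median log2 fold changes of 7.32 in groups 1 to 5 and 4.72 in groups 6 to 9. In groups 10 to 13, 3 genes were tested and 2 fell, Hoxc13 and Hoxd13. In HD none of the 20 tested Hox genes was called by edgeR, with 7 at an unadjusted p under 0.05, all higher, and 3 called higher by DESeq2. Hoxd1 came closest, with 10.3 and 8.63 TPM in HD, 0.92 and 1.21 TPM in EH, and 2.42 and 3.33 TPM in wild type (log2 fold change 1.72, edgeR adjusted p = 0.0938). In EH 9 of the 20 fell and 0 rose by edgeR, beside 27.3% lower and 7.94% higher over all tested genes at bivalent regions. In EH 1 of the 20 was higher at an unadjusted p under 0.05, and DESeq2 called 1 higher. The falls include Hoxa7, with 2.85 and 1.25 TPM in EH, against 8.09 and 9.70 TPM in wild type. They also include Hoxd3, with 18.7 and 48.0 TPM in EH, against 93.3 and 73.8 TPM in wild type.

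The identity genes of motor neurons themselves lay at bivalent regions, 14 of 17 on the list. H3K27ac was listed at 12 of the 14 in each genotype, and their median wild-type H3K27me3 fold was 5.42. Isl1, a LIM homeodomain factor that specifies motor neurons, had 416 and 331 TPM in HD, 594 and 695 TPM in EH, 363 and 283 TPM in wild type, and 0.82 and 1.29 TPM in ES cells. Its bivalent region of 9170 bases carried an H3K27me3 region of 908 bases in HD and of 676 bases in wild type, with folds of 3.50 in HD and 3.51 in wild type. Lhx3, the partner of Isl1, had 361 and 317 TPM in HD, 298 and 324 TPM in EH, and 320 and 292 TPM in wild type, under an H3K27me3 region of 1164 bases in HD and 8012 bases in wild type. The cholinergic genes Chat and Slc18a3, the vesicular acetylcholine transporter, share 1 bivalent region with an H3K27me3 fold of 2.92 in HD and 3.26 in wild type, an H3K27ac fold of 6.84 in HD and 7.39 in wild type, and a Mnx1 peak. None of the 14 was called in HD by edgeR, with 5 at an unadjusted p under 0.05 and 2 called by DESeq2. Lhx4 came closest, with 38.7 and 29.7 TPM in HD, 92.5 and 109 TPM in EH, and 83.9 and 67.2 TPM in wild type (log2 fold change −1.17, edgeR adjusted p = 0.0600), and Onecut1 had 56.6 and 57.35 TPM in HD and 24.85 and 29.0 TPM in wild type (log2 fold change 1.06, edgeR adjusted p = 0.143). In EH 4 of the 14 rose by edgeR, Isl1, Ebf1, Nrp2 and Slit3, beside 7.94% higher over all tested genes at bivalent regions. Whether the list differs from that share was not tested. Slit3, a guidance ligand of motor axons, had 199 and 255 TPM in EH, 77.5 and 63.3 TPM in HD, and 67.5 and 51.3 TPM in wild type. Ebf2 stood apart within the list, with an H3K27me3 fold of 9.16 in HD and 14.05 in wild type, no H3K27ac, and no more than 0.64 TPM in any library.

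Factors of other spinal and germ layer fates differed widely in level. Of the 34 spinal interneuron factors at bivalent regions 19 passed the filter on low counts among motor neurons, 1 rose in HD (Dmrt3), and in EH 3 rose and 9 fell. The 9 include Gata2 and Gata3, which the trophoblast list holds too, and the part of trophoblast markers in this count was not tested. For comparison, 27.3% of all tested genes at bivalent regions fell in EH and 7.94% rose. Sox1, a factor of neural progenitors, had 66.5 and 61.8 TPM in HD, 5.73 and 12.1 TPM in EH, and 6.18 and 12.4 TPM in wild type, and its log2 fold change in HD of 2.79 ± 0.43 missed the threshold (edgeR adjusted p = 0.0771). Nkx2-2, a ventral progenitor factor, remained at or below 0.21 TPM in all 8 libraries under an H3K27me3 fold of 10.4 in HD and 19.2 in wild type. Of the mesoderm factors 19 of 36 passed the filter, 0 were called in HD by edgeR or DESeq2 (1 at an unadjusted p under 0.05), and in EH 3 rose and 4 fell, the falls including Hand1 of the trophoblast list. Of the 13 pluripotency genes at bivalent regions all 13 fell against ES cells, Sox2 among them, with 5.67 and 3.51 TPM in wild-type motor neurons and 237 and 198 TPM in ES cells.

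Genes of channels, guidance and adhesion at bivalent regions mostly rose with the induction: 21 of 25 tested voltage-gated channels rose against ES cells and 1 fell, 14 of 20 guidance genes rose and 3 fell, and 9 of 10 cadherins rose and 1 fell. Of 12 tested transmitter genes 7 rose and 3 fell by edgeR, and DESeq2 called 5 higher and 3 lower. Over all tested genes at bivalent regions, 49.5% rose and 27.6% fell against ES cells by edgeR. In EH 9 of the 25 channels, 7 of 19 guidance genes and 5 of 10 cadherins fell, against 1, 4 and 0 that rose. Over all tested genes at bivalent regions, 27.3% fell in EH and 7.94% rose, and whether these families differ from that was not tested. Gad1 and Gad2, the enzymes that make the inhibitory transmitter GABA, stood higher in both HD libraries without passing the edgeR test. In HD edgeR called 0 of 9 transmitter genes and 0 of 10 cadherins, with 3 and 6 at an unadjusted p under 0.05, all higher, and DESeq2 called 2 transmitter genes and 3 cadherins higher. Gad2 had 3.39 and 1.92 TPM in HD, 0.26 and 0.32 TPM in EH, and 0.40 and 0.87 TPM in wild type (log2 fold change in HD 2.32, edgeR adjusted p = 0.0739). Gad1 had 3.74 and 3.37 TPM in HD (edgeR adjusted p = 0.219), 0.15 and 0.16 TPM in EH (edgeR adjusted p = 0.00662), and 0.92 and 1.19 TPM in wild type, and its log2 fold change in EH was −2.82 ± 0.37. Pcdh17, a delta protocadherin, had 2.60 and 2.21 TPM in HD, 0.40 and 0.30 TPM in EH, and 0.78 and 0.79 TPM in wild type, with a log2 fold change of 1.63 in HD that missed the threshold (edgeR adjusted p = 0.0562) and one of −1.14 in EH (edgeR adjusted p = 0.0175).

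Among signalling ligands, Wnt7b had 3.05 and 4.17 TPM in HD, 1.03 and 0.70 TPM in EH, and 4.13 and 5.01 TPM in wild type, with a log2 fold change in EH of −2.38 ± 0.29 (edgeR adjusted p = 0.0059). Wnt4 had 1.73 and 1.68 TPM in HD, 0.80 and 0.51 TPM in EH, and 2.02 and 2.25 TPM in wild type, with a log2 fold change in EH of −1.69 ± 0.29 (edgeR adjusted p = 0.0117). They were the 2 of 7 tested Wnt ligands called in EH, both lower, beside 27.3% lower over all tested genes at bivalent regions. Whether Wnt ligands differ from that share was not tested. In HD 0 of the 7 were called by edgeR or DESeq2, also at an unadjusted p under 0.05.

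Some genes of the Polycomb system itself lay at bivalent regions, 7 of 29 listed subunits and H3K27 demethylases. They include Bmi1, Pcgf5, Cbx2, Cbx7 and Cbx8 of Polycomb repressive complex 1 and Kdm6b, an H3K27 demethylase. Cbx8 had 14.5 and 12.9 TPM in HD, 21.3 and 20.8 TPM in EH, 16.3 and 14.0 TPM in wild-type motor neurons, and 0.29 and 0.51 TPM in ES cells. Bmi1, Cbx2, Cbx8 and Kdm6b were among the 5 that rose in wild-type motor neurons against ES cells, and Cbx7 fell (log2 fold change −0.93, edgeR adjusted p = 0.000861), although on the log2(TPM + 1) scale 6 of the 7 rose and none fell. None of the 7 was called in HD by edgeR or DESeq2, also at an unadjusted p under 0.05, and Kdm6b was the one called in EH (log2 fold change 0.54, edgeR adjusted p = 0.0334). Over all tested genes at bivalent regions, 7.94% were higher in EH and 27.3% lower.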

How the data were processed

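RNA was measured in 8 libraries and chromatin in 22. Per the submitters' processing notes the build is mm10 and the tools were Trim Galore, STAR, RSEM, Subread with featureCounts, DESeq2, Bowtie2, SAMtools and MACS2; their versions and settings are not given in the sources used here. The authors deposited RSEM expected counts and TPM per gene, and 1 peak list for each mark and genotype with a fold enrichment (a ratio) and a −log10 q for each entry; how libraries were combined into a list is not given there.

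Regions were overlapped by 1 base or more, and genes were linked by a RefSeq coding start (GRCm38.p6) within 2 kb. The promoter table gave 2257 starts; for 837 other genes either end of the gene was taken, so some of these links may be to a gene's far end. A gene with several regions took the class of a bivalent region first. Rounded expected counts entered edgeR 4.0.16 (TMM, its default filter on low counts, quasi-likelihood test, Benjamini-Hochberg adjustment) in R 4.3.3. HD and EH were tested in 1 fit of the 6 motor neuron libraries (15565 genes), and motor neurons against ES cells in a fit of all 8 (17770 genes). The procedures were tested on simulated data. Standard errors are the log2 fold change over the root of F. DESeq2 1.42.0 and limma 3.58.1 on log2(TPM + 1) were alternatives, as were another scaling, no filter, a replicate block, fewer libraries, other link distances and stricter overlaps. Intervals and floors cover counting error only.

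The members and lists were chosen with earlier results of these data known. Named were up to 10 called rises and falls of each comparison (mean of at least 1 CPM, or 5 CPM against ES cells, and groups that do not overlap), 3 genes or fewer per list, those of smallest adjusted p in HD, the 8 regions of highest H3K27me3 fold, Hox genes and motor neuron genes. Other list members named in the account of families, such as Nkx2-2, Sox2, Wnt4 and the Polycomb genes, were picked after their values were seen. Some genes that these rules select are not reported here.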

Additional observations from a re-analysis of the deposited data

Results flagged for a closer look

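HD and EH carry the same genotype label, and 28 of the 31 genes named for a change in either line differed between the 2 lines when HD was tested directly against EH (edgeR adjusted p from 5.53e-05 to 0.0498). This contrast does not use the wild-type libraries for its fold change. The 31 genes were chosen for changes in these same HD and EH libraries, so the choice itself favours a high count. Over all tested genes at bivalent regions 35.4% differed between the lines, and over all genes tested 21.2%. Among genes called in HD, the log2 fold change of HD over EH was 2.60 for Dmrt3, 1.54 for Sorcs3, 3.21 for Frzb, 1.76 for Chl1, 2.66 for Lypd1, 2.05 for Unc5d, 1.37 for Ntng1, 1.72 for Nr2f1, −2.66 for Nwd2 and −0.63 for Zfp804a. The adhesion gene Chl1 and the interneuron factor Dmrt3 thus stood higher in HD than in EH in every library.

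Among the largest rises in EH, HD over EH was −3.27 for Sst, −2.09 for Sstr2, −2.20 for Thsd7b, −2.32 for Bhlhe22, −3.57 for Lrrc38, −2.70 for Gata4, −3.22 for Adra1a and −1.33 for Adamts5. Among the largest falls in EH it was 3.82 for Fxyd7, 3.53 for Nrtn, 3.90 for Inhbb, 4.46 for Mafa, 3.24 for Igf2, 2.40 for Prom2, 3.25 for Lepr, 2.59 for Tymp, 3.81 for Sstr1 and 2.75 for Itga1. Library depth (11.2 and 12.4 M expected counts in HD, 39.8 and 39.7 M in EH) and the trophoblast markers differed between the lines too, and their part in these differences was not tested.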

How the results depend on the processing

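Calls in HD were few and moved with the analysis. HD was tested in 1 fit with EH, so its standard errors do not rest on HD and wild-type libraries alone. Spread between the 2 libraries of a group, as chi-square per degree of freedom, was 53.4 in EH, 4.75 in HD and 6.32 in wild type. Depth differed between these groups too, and the part of the EH spread in the HD calls was not tested. Instead of 13 genes, 69 were called without the filter on low counts, 82 by DESeq2, 137 with only the libraries of the 2 groups, 5 when H3K27me3 had to cover 50% of the region, 6 with H3K27me3 entries of −log10 q of at least 3 (a choice made after seeing the data), and 0 to 0 with 1 library left out. Beside the 82 genes by DESeq2, 146 were higher and 36 lower over all 15565 genes tested. For the fits without the filter and with 2 groups only, the number over all genes is not given here. The counts of these fits therefore describe the settings and not the genes at bivalent regions. With a replicate block edgeR called 0 in HD, with 291 genes at an unadjusted p under 0.05, 579 in EH and 2006 against ES cells. Deviations of libraries with the same number did not go together (r = 0.083 for HD and wild type and −0.085 for EH and wild type, across 16908 genes, which are not independent). With 2 libraries in a group, these values cannot show whether libraries of the same number share a culture or batch. The result with the replicate block is therefore not set aside. In EH, 51 to 1238 genes were called with 1 library left out, against 821 with all. Against ES cells the count of 2032 stayed within 1.5 times under every alternative run, from 1359 to 2194. The other alternatives kept the total counts in HD and EH within 1.5 times. The 185 genes higher in EH became 118 with the replicate block, 121 with only the libraries of the 2 groups and 119 at 50% cover, and the 1305 higher against ES cells became 812 at 50% cover. With RLE size factors, Nr2f1 and Sorcs3 lost their calls in HD.

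The number of bivalent regions was 5079, and 3258 with a gene start within 2 kb. When a mark had to cover 50% of the region, the shares were 87.3% for H3K4me3 in HD and 0.0591% for Mnx1. Mnx1 peaks had a median length of 527 bases and bivalent regions one of 1791 bases, so few such peaks could cover 50%. The shares were 7.82% in HD and 6.02% in wild type for H3K27ac, and 45.7% in HD and 83.4% in wild type for H3K4me1. For H3K9me3 they were 18.9% in HD and 31.3% in wild type. With entries of −log10 q of at least 3 they were 17.8% in HD and 16.0% in wild type for H3K27ac, and 16.2% in HD and 27.5% in wild type for H3K9me3. HD and wild-type motor neurons had 11.2 to 13.9 M counts a library, against 39.7 M or more in EH, and a limit of detection was not measured. No peak list has a replicate here, and the HD lists of H3K4me1 and H3K9me3 hold fewer regions than those of wild type, as given above.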
